A study of Homo sapiens with 24 samples.

Results

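The genes described here were higher in LN-229 glioblastoma cells after knockdown of ZFX. They were lower in 293T cells that had ZFX put back at a high RNA level. Their RNA thus ran against ZFX in both cell lines. They were selected on measured levels, as the 142 protein-coding genes that met both conditions of a rule on group means, of 9790 protein-coding genes with enough RNA in both lines, 19940 protein-coding genes and 58721 gene IDs in all. Levels are given as CPM, the count of a gene scaled to the gene total of its library. The first condition was a log2 ratio of siZFX over siControl of at least 0.585, met by 427 of the 9790 genes. The second was a log2 ratio of wtZFX over pCMV6 of at most -0.3, met by 1312. Both ratios had 0.5 CPM added, and the means of siZFX and of pCMV6 had to reach 5 CPM.

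RNA-seq was done on 24 libraries in 8 groups of 3 replicates. LN-229, an established human glioblastoma line labelled wild type, received an siRNA against ZFX (siZFX), a control siRNA (siControl), siRNAs against ZFX and ZNF593 together (the double knockdown), an siRNA against ZNF593 alone (siZNF593), or the control siRNA in a second set (siControl_2). The other 9 libraries came from 293T cells, an embryonic kidney line, in which ZFX and its paralog ZNF711 had been knocked out (DKO cells). These were given FLAG-tagged wild-type ZFX (wtZFX), a FLAG-tagged ZFX construct named ZFX12_13 whose name the labels do not explain, or the empty vector pCMV6. Both control sets have the same treatment label, and the names of the deposited data tie siControl_2 to the double knockdown. The replicates are called biological without mention of separate cultures, so the p-values measure the spread between these libraries, which may be in part technical.

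ZFX is a transcription factor with a row of zinc fingers that is encoded on the X chromosome. It is known as an activator that sits near the start sites of very many genes, often in CpG islands, and its best-known binding motif holds the letters AGGCCT. ZNF593 is a small zinc finger protein known for its part in the maturation of the large ribosomal subunit.

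ZFX RNA was at 12.4, 15.2 and 19.5 CPM in siZFX libraries, against 49.6 ± 4.22 CPM in siControl (mean ± SD, n = 3, as for all means here). It was at 27.5 ± 2.48 CPM in the double knockdown and 56.5 ± 4.45 CPM in siZNF593, against 52.0 ± 4.89 CPM in siControl_2. In DKO cells it was at 15430 ± 1202 CPM with wtZFX and 18637 ± 3034 CPM with ZFX12_13, against 227 ± 10.8 CPM with pCMV6. Both constructs thus gave far more ZFX RNA than any LN-229 group had. These transcript reads do not test whether the knocked-out genes make protein. ZNF593 lies over another gene and was counted only when both strands were summed, at 3.21 ± 0.48 CPM in the double knockdown and 2.34 ± 0.689 CPM in siZNF593, against 34.9 ± 3.18 CPM in siControl_2. LN-229 libraries had the glial markers S100B (244 to 615 CPM), SOX10 (630 to 1296 CPM) and CD44 (421 to 883 CPM), but GFAP, the defining astrocyte filament, was at only 1.36 to 8.99 CPM. DKO libraries had the kidney markers CDH1 and PAX2 at low levels (4.87 to 7.63 and 2.0 to 13.6 CPM) and almost no PAX8 (0 to 0.231 CPM). PAX8 was at 8.95 to 16.9 CPM in LN-229. The DKO ranges of GFAP (1.85 to 7.42 CPM) and OLIG2 (9.98 to 13.6 CPM) overlapped those of LN-229. Every LN-229 library had more SOX2, NES and VIM than any DKO library, and less LHX1 and EPCAM. Immune and endothelial markers stayed at or below 1.49 CPM in both lines. Replicate 3 of the double knockdown stood apart: its log2 CPM correlated at 0.982 and 0.983 with the other libraries of its group across 17684 genes, whereas pairs within the other LN-229 groups ran at 0.990 to 0.995.

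The 2 comparisons in the rule chose the members, so their values are a description with no test. Members had a median log2 ratio of 0.74 in siZFX over siControl (0.59 to 2.26) and -0.43 in wtZFX over pCMV6 (-0.88 to -0.31), where the 9790 genes had medians of 0.02 and -0.05. The libraries of siZFX did not overlap with those of siControl for any of the 142. The libraries of wtZFX and pCMV6 overlapped for MTLN and FMO5. The rule favors such gaps, since the same libraries chose the members, and overlap was not counted for other genes. Most members were of moderate abundance, with a median of 25.9 CPM in siZFX and 31.3 CPM in pCMV6. At the edges of the rule, DAGLB (0.59) was the last member inside the siZFX bound and COL4A5 (0.58) the first gene outside it. SAMD12 (-0.31) was just inside the wtZFX bound and STAT2 (-0.30) just outside, with CDKN1B, the p27 cell cycle inhibitor, close behind at -0.30.

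PGM2L1, the enzyme that makes glucose 1,6-bisphosphate, an activator of sugar phosphate mutases, had the highest ratio in siZFX over siControl of all members. It was at 111, 110.3 and 111 CPM in siZFX and 21.02, 22.6 and 24.6 CPM in siControl. In DKO cells it was at 27.3, 27.2 and 24.9 CPM with wtZFX and 37.4, 36.3 and 35.8 CPM with pCMV6. The 3 libraries of each group lay close together and no library of one group reached into the other. These libraries chose the gene, so the gap is a description only. ENPP5, a membrane enzyme of the nucleotide pyrophosphatase family, led when the smaller of both ratios was ranked (0.88 and -0.88). Behind it came FAXDC2, a member of the fatty acid hydroxylase family (0.97 and -0.77), NBEAL1, a BEACH domain protein (0.83 and -0.75), and IKZF2, the zinc finger factor Helios (1.13 and -0.74).

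**Figure D1:**
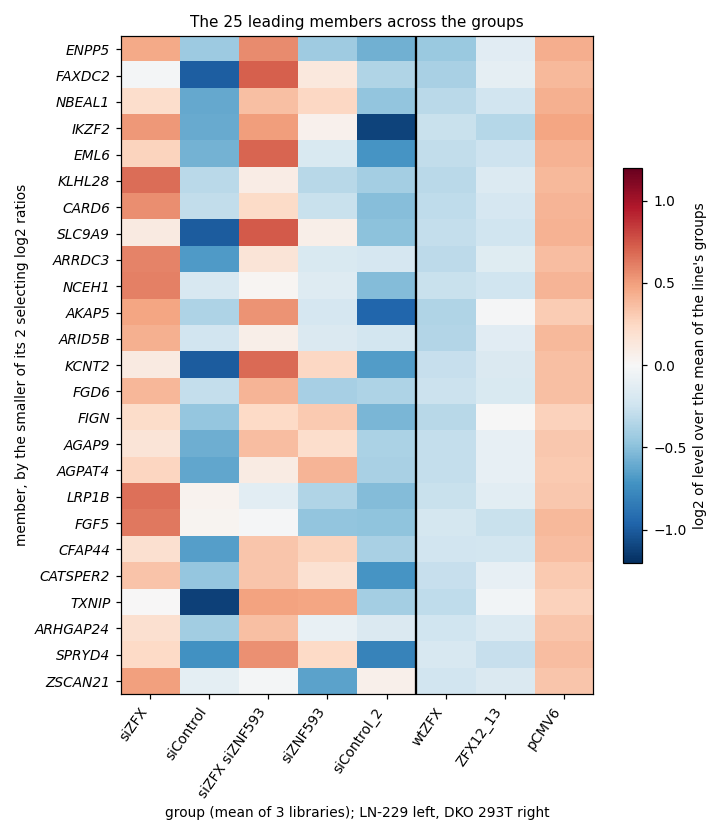
The 25 members with the largest smaller-of-both ratios, as group means of 3 libraries; the color is the log2 of the level over the mean of the groups of the same cell line. The siZFX and pCMV6 columns are red and the siControl and wtZFX columns blue by the choice of the members. The double knockdown, siZNF593, siControl_2 and ZFX12_13 libraries had no part in it. Their colors still depend on it, since the mean they are set against includes the groups that chose the members. Most squares of the double knockdown are red and most of siControl_2 blue, which is a description only.

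The double knockdown and siControl_2 had no part in choosing the members, and their comparison gives a test of the same direction in separate libraries. It does so for both siRNAs together, since the double knockdown also received the one against ZNF593. Of the 142 members, 111 (78.2%) were higher in the double knockdown and 3 (2.11%) were lower, at an adjusted p under 0.05 (edgeR quasi-likelihood test, Benjamini-Hochberg over all 17684 tested genes). Among all tested genes 17.6% were higher and 20.6% lower, and among the 9790 genes with both minimum levels 22.4% were higher and 28.1% lower. The members' median log2 change was 0.65, with the middle of the list between 0.32 and 0.86, against -0.03 for the 9790 genes. For 109 of the 111 the 3 double knockdown libraries all lay above the 3 siControl_2 libraries, 72 were at least 1.5-fold higher and 23 at least 2-fold. These counts were made for called members only, with no share over other genes beside them, so they do not set the members apart. Without replicate 3 of the double knockdown 110 members were higher, with a median of 0.58. Members had transcripts of lower GC content than the 9790 genes (medians 44.1% and 47.4%), and with offsets for GC and length in the fit 106 were higher with a median of 0.54. The 3 that fell were SPRY1, BHLHE41 and MINDY2. All 142 passed the low-count filter. Of the 114 members called, 92 kept their call in each of the 6 fits that left out 1 library.

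**Figure D2:**
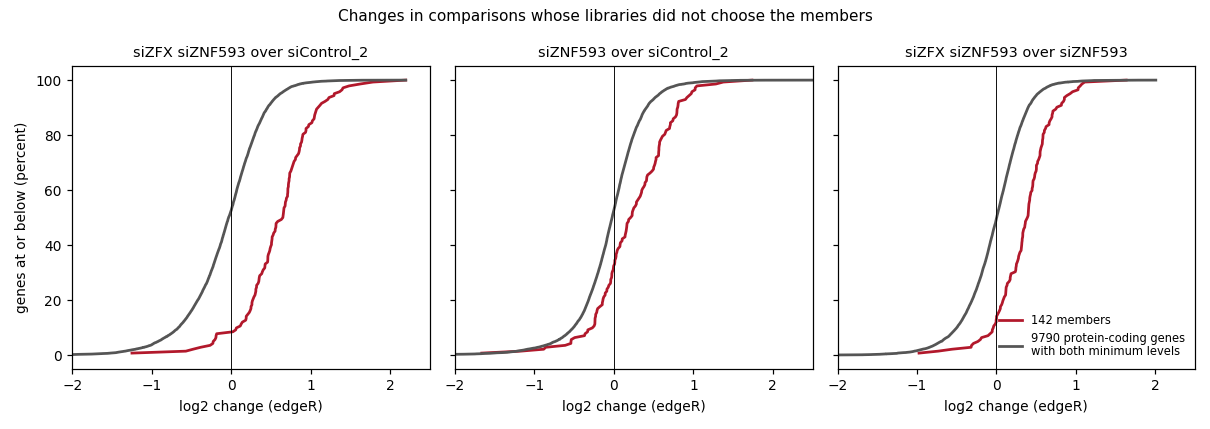
Cumulative share of genes (percent, vertical axis) at or below each log2 change (horizontal axis) in the 3 comparisons tested, for the 142 members (red) and the 9790 protein-coding genes with both minimum levels (gray). Over most of its length the red curve lies to the right of the gray one in each panel, with medians of 0.65, 0.22 and 0.39 against values within 0.04 of 0; the leftmost panel shows the widest gap.

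PGM2L1 changed most in the double knockdown. It was at 79.1, 84.0 and 108 CPM there, against 18.4, 18 and 19.1 CPM in siControl_2 (log2 2.20, SE 0.10, adjusted p = 2.76e-13). Every double knockdown library lay above every control library, and replicate 3 was the highest. Next came IKZF2, at 4.82, 5.43 and 7.35 CPM in the double knockdown and 1.84, 1.44 and 1.48 CPM in siControl_2 (log2 1.78, SE 0.25, adjusted p = 6.13e-06). AKAP5, a scaffold that anchors protein kinase A at membranes, was at 6.13, 5.12 and 7.84 CPM in the double knockdown and 1.84, 2.39 and 1.58 CPM in siControl_2 (log2 1.62, SE 0.24, adjusted p = 9.83e-06). Neither gene's groups overlapped, although both are scarce, so that small numbers of reads carry more of their error. SAMD12 (1.48) and EML6, a microtubule-binding protein of the EMAP family (1.41), completed the 5 largest rises in log2 change.

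**Figure D3:**
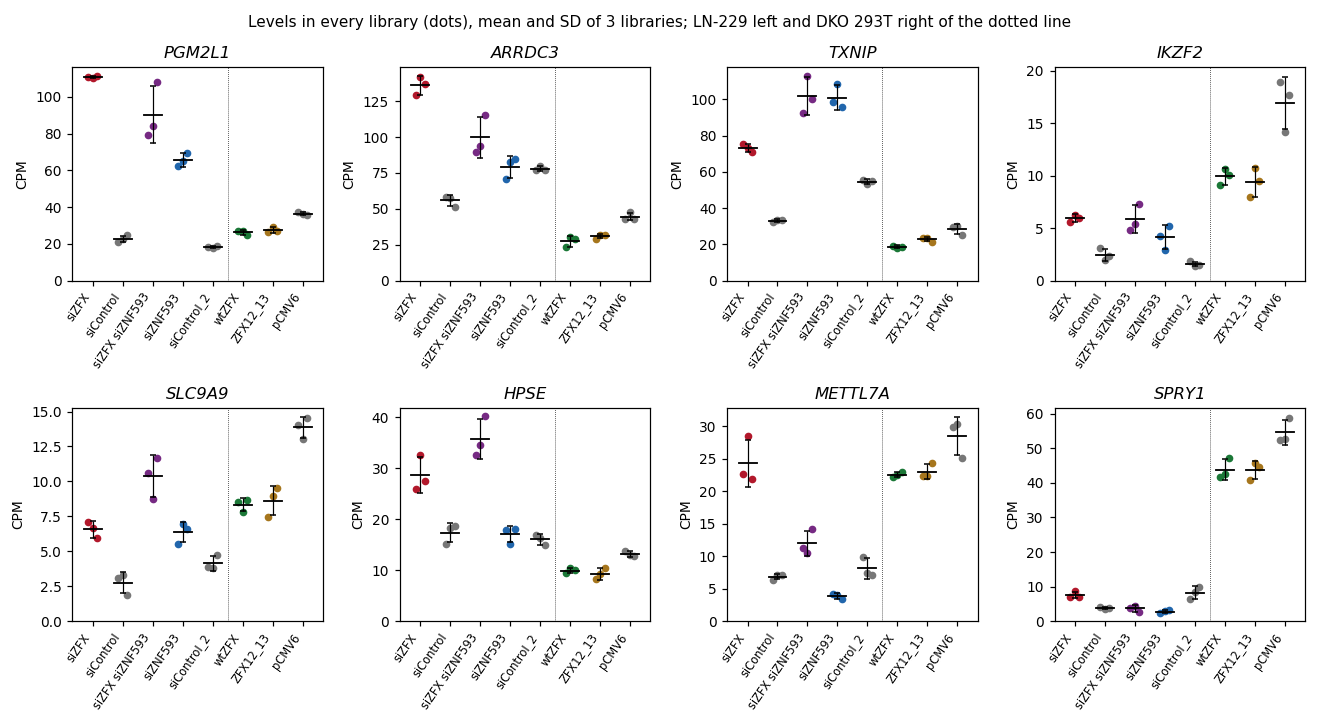
CPM of 8 members in each of the 24 libraries (dots), with the mean and SD of each group of 3. LN-229 groups stand left of the dotted line and DKO groups right of it. Each knockdown or ZFX construct stands left of the control it is compared with in the text. PGM2L1, IKZF2, SLC9A9, HPSE and TXNIP are higher in the double knockdown than in siControl_2, METTL7A is lower in siZNF593 than in every other LN-229 group, and SPRY1 is lower in the double knockdown than in siControl_2.

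By function, the members were put into groups by hand, from general knowledge and after the members were known, of which 13 with 116 members are described, beside 14 members placed in none. Transporters and ion channels, with which receptors such as LRP1B were placed, had the highest group median (0.87). Of the 13 members of this group 12 were higher in the double knockdown and 0 lower. SLC9A9, a sodium/proton exchanger of endosomes, was at 10.6, 8.76 and 11.7 CPM in the double knockdown and 3.86, 3.83 and 4.74 CPM in siControl_2 (log2 1.23, SE 0.20, adjusted p = 3.15e-05). ABCG2, the efflux pump that exports many drugs, was at 9.89, 11.9 and 16.0 CPM in the double knockdown and 6.53, 4.82 and 6.67 CPM in siControl_2 (log2 0.97, SE 0.17, adjusted p = 8.87e-05). The double knockdown libraries lay above the controls for both genes. The sodium-activated potassium channel KCNT2 (1.39), the inositol trisphosphate receptor ITPR1 that releases calcium from the endoplasmic reticulum (0.86), the monocarboxylate transporter family member SLC16A4 (0.83), the phospholipid flippase ATP10D (0.68) and the synaptic vesicle protein SV2A (0.73) rose as well. The sperm calcium channel gene CATSPER2 (1.07) has a near-identical copy, so its reads may be split. LRP1B, a large lipoprotein receptor, had a log2 change of 0.32 and no call (adjusted p = 0.124).

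Metabolic enzymes followed with a median of 0.76, 13 of 14 higher and 0 lower. HPSE, heparanase, which cuts the heparan sulfate chains of the matrix, was at 32.7, 34.5 and 40.2 CPM in the double knockdown and 16.8, 16.4 and 14.9 CPM in siControl_2 (log2 1.07, SE 0.12, adjusted p = 2.27e-07). ENPP5 was at 9.24, 11.3 and 13.9 CPM in the double knockdown and 4.12, 5.07 and 5.53 CPM in siControl_2 (log2 1.14, SE 0.18, adjusted p = 2.8e-05). Double knockdown libraries were the higher ones in both cases, without overlap. PFKFB2, which sets the level of the glycolytic activator fructose 2,6-bisphosphate (0.69), the biotin-recycling enzyme BTD (0.66), the lysosomal sulfatase ARSK (0.88) and the asparaginase ASRGL1 (0.78) rose too. AUH, an enzyme of leucine breakdown, had 0.18 without a call (adjusted p = 0.396).

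The 10 genes of vesicle traffic and exocytosis had a median of 0.74, with 9 higher and 0 lower. RAB3B, a small GTPase of regulated exocytosis, was at 18, 21.6 and 20.4 CPM in the double knockdown and 8.46, 8.80 and 6.96 CPM in siControl_2 (log2 1.22, SE 0.12, adjusted p = 6.65e-08). Its groups did not overlap. The calcium sensor of neurotransmitter release SYT1 (0.71), the clathrin adaptor partners NECAP1 (0.87) and SYNRG (0.86), the dense-core vesicle factor CCDC186 (0.98) and the membrane repair protein MYOF (0.51) also rose. GOLPH3L, a Golgi phosphoinositide-binding protein, had 0.12 and no call (adjusted p = 0.494). Among 6 phosphoinositide and inositol phosphate enzymes 5 were higher (median 0.54), led by FIG4, the phosphatase of phosphatidylinositol 3,5-bisphosphate, with 0.93. With 1 library left out in turn, 4 to 6 of these were higher. PIP4K2C, a phosphatidylinositol 5-phosphate 4-kinase, rose by 0.55.

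All 7 kinases and signalling adaptors were higher, with a median of 0.73. They included the innate immune kinase ALPK1 (0.73), the NLRP1 inhibitor CARD8 (0.90), the calcium/calmodulin kinase subunit CAMK2G (0.56) and the stress-responsive kinase OXSR1 (0.50). All 5 genes of cilium and centrosome were higher (median 0.68), among them LRRCC1 (1.06), the planar polarity effector INTU (0.65) and the sperm flagellum protein CFAP44 (0.68). CFAP44 lost its call in 1 of 6 fits that left out 1 library, with an adjusted p of up to 0.0563 without siControl_2 replicate 1. Of 6 chromatin readers and regulators 5 were higher (median 0.69), led by the bromodomain protein BAZ2B (0.77), the methyl-lysine reader MBTD1 (0.73) and the CoREST complex partner ZMYM3 (0.66). With replicate 1 of siControl_2 left out, 3 of the 6 were higher.

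Lipid, sterol and GPI-anchor enzymes moved in nearly the same proportion, 11 of 12, but by less (median 0.42). HSD17B7, which acts late in cholesterol synthesis, was at 39.2, 40.9 and 57.5 CPM in the double knockdown and 19.8, 20.98 and 21.6 CPM in siControl_2 (log2 1.05, SE 0.12, adjusted p = 4.11e-07). The groups did not overlap, but a near-identical pseudogene may take part of its reads. FAXDC2 (1.01), the geranylgeranyl diphosphate synthase GGPS1 (0.72) and PGAP3, which remodels GPI anchors (0.66), rose most after it. PLA2G4A, the cytosolic phospholipase that frees arachidonic acid, rose by 0.42. ORMDL2, a brake on sphingolipid synthesis, had 0.06 and no call (adjusted p = 0.852). With 1 library left out in turn, 7 to 11 of these 12 were higher, with 7 without replicate 2 of siControl_2.

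The smaller groups ran as follows. Of 6 genes of ubiquitin and protein quality control 4 were higher and 1, the deubiquitinase MINDY2, was lower (median 0.49); USP49, a histone H2B deubiquitinase, rose by 0.75. Of 10 RNA, telomere and DNA repair genes 7 were higher and 0 lower (median 0.43), with ABRAXAS1, a scaffold of the BRCA1-A complex, at 0.94 and the piRNA pathway protein TDRKH at 0.79. The telomere replication factor CTC1 had 0.30 and no call (adjusted p = 0.132). Of 4 secreted factors the clotting inhibitor TFPI (0.90) and the matrix protein CCDC80 (0.39) rose. The growth factor FGF5 (0.46) and the stress peptide UCN (-0.27) had no call (adjusted p = 0.142 and 0.579). Of the 14 members placed in no group 11 were higher (median 0.67), among them the NK cell ligand NCR3LG1 (1.05), the nuclear import factor KPNA5 (0.89), AMMECR1 (1.10) and SPRYD4 (1.30).

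**Figure D4:**
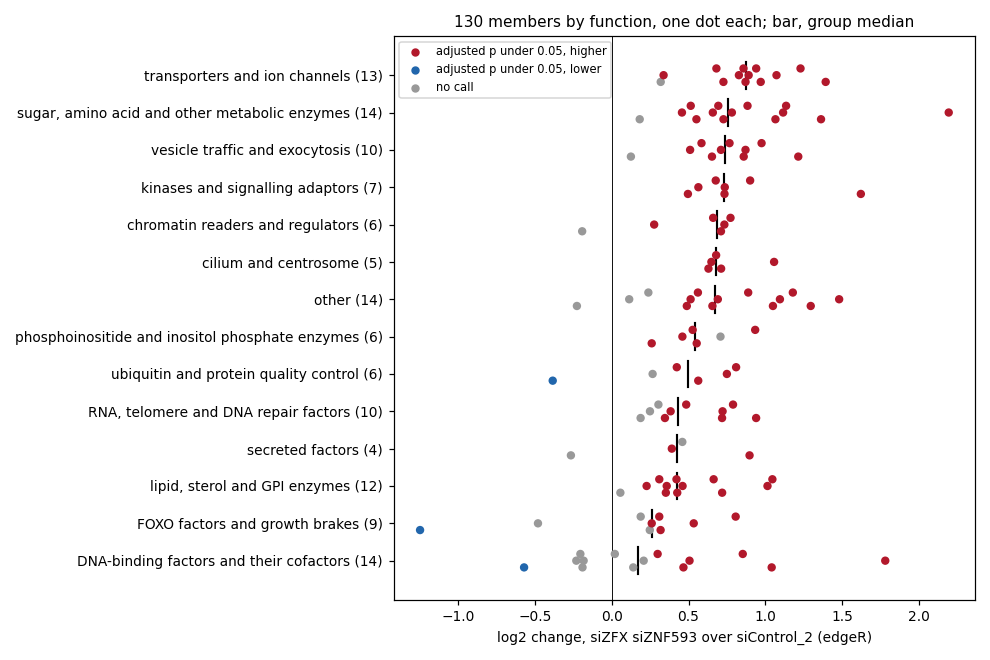
Log2 change in the double knockdown over siControl_2 (horizontal axis) for each of 130 members, in 13 function groups and, as other, those in none (vertical axis, with the number of members in parentheses); black bars are group medians. Red dots passed the test as higher, blue dots as lower and gray dots had no call. Medians run from 0.87 for transporters and ion channels down to 0.17 for DNA-binding factors.

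Without replicate 3 of the double knockdown, transporters (12 of 13 higher, median 0.78) still led and DNA-binding factors (6 of 14, 0.20) were still last. Between them metabolic enzymes had 12 of 14 higher, vesicle genes 9 of 10, kinases 7 of 7, lipid enzymes 10 of 12 and growth brakes 4 of 9. The leading group changed without replicate 2 of siControl_2, where kinases and signalling adaptors had a median of 0.92 and transporters 0.86.

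Of 9 FOXO factors and growth brakes 5 were higher and 1 was lower, with a median of 0.26. With replicate 2 or replicate 3 of siControl_2 left out, 3 were higher. FOXO3 and FOXO4 are forkhead transcription factors that growth factor signalling holds inactive, and TXNIP and ARRDC3 are alpha-arrestins that limit glucose uptake and receptor signalling. TXNIP was at 92.7, 113 and 100.1 CPM in the double knockdown and 55.7, 53.2 and 55.2 CPM in siControl_2 (log2 0.81, SE 0.08, adjusted p = 6.53e-08), without overlap. ARRDC3 was at 89.4, 94.1 and 116 CPM in the double knockdown and 77.4, 80.1 and 76.9 CPM in siControl_2 (log2 0.26, SE 0.09, adjusted p = 0.0273). It lost its call in 4 of 6 fits that left out 1 library, with an adjusted p of up to 0.0936 without double knockdown replicate 3. In the libraries that chose it ARRDC3 was at 129, 142 and 137 CPM in siZFX and 58.4, 57.7 and 51.6 CPM in siControl, so siControl itself was lower than siControl_2 for this gene. FOXO3 was at 49.5 ± 1.45 CPM in the double knockdown and 37.2 ± 2.48 CPM in siControl_2 (log2 0.32, SE 0.09, adjusted p = 0.00882), and it lost its call in 1 of 6 fits that left out 1 library, with an adjusted p of up to 0.0578 without siControl_2 replicate 2. TSPYL2, a nuclear protein that slows proliferation, rose by 0.53. HBP1, a repressor of G1 genes, had 0.31 and lost its call in 2 of 6 fits that left out 1 library, with an adjusted p of up to 0.0952 without double knockdown replicate 3. FOXO4 (0.25), the linker histone of resting cells H1F0 (0.19) and the pro-death BCL2 family gene BBC3 (-0.48) had no call, with adjusted p-values of 0.419, 0.166 and 0.369.

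SPRY1, a feedback inhibitor of receptor tyrosine kinase signalling, went the opposite way from its selection in the double knockdown over siControl_2. It was at 3.88, 4.496 and 2.63 CPM in the double knockdown and 6.40, 8.30 and 10.0 CPM in siControl_2 (log2 -1.25, SE 0.21, adjusted p = 6.26e-05). All 3 double knockdown libraries were below the controls. In the libraries that chose it SPRY1 was at 7.11, 8.68 and 6.92 CPM in siZFX and 4.05, 3.58 and 3.76 CPM in siControl. Here too siControl was lower than siControl_2. With siZNF593 alone SPRY1 fell further (log2 -1.66, adjusted p = 4.21e-06), and the double knockdown over siZNF593 had 0.41 and no call (adjusted p = 0.196). MINDY2 also fell with siZNF593 alone (-0.86, adjusted p = 5.16e-07) and was higher in the double knockdown than in siZNF593 (0.47, adjusted p = 0.000966).

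Among 14 DNA-binding factors and cofactors 6 were higher and 1 lower, with the lowest group median (0.17). Without replicate 1 of the double knockdown, 3 were lower. IKZF2 and TIPARP, an ADP-ribosyltransferase that restrains the aryl hydrocarbon receptor (1.04), rose most. NR1D2, the clock repressor REV-ERB beta (0.47), the zinc finger protein ZNF429 (0.85) and the nuclear receptor coactivator NCOA3 (0.30) rose too. BHLHE41, the clock repressor DEC2, was at 11.2, 7.83 and 9.24 CPM in the double knockdown and 11.3, 13.7 and 14.4 CPM in siControl_2 (log2 -0.57, SE 0.14, adjusted p = 0.00178). It was lower in each double knockdown library than in any control. The vitamin D receptor VDR (-0.19), ARID5B (0.21) and AKNA (-0.23) had no call (adjusted p = 0.118, 0.13 and 0.318).

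Knockdown of ZNF593 alone was also free of the libraries that chose the members, and it asks what the members do when ZFX is left in place. Of the 142, 55 (38.7%) were higher in siZNF593 than in siControl_2 and 10 (7.04%) were lower (edgeR quasi-likelihood test). Among all tested genes 14.2% were higher and 16.4% lower, and among the 9790 genes 16.7% were higher and 22.7% lower. The members' median log2 change was 0.22, against -0.02 for the 9790 genes. The siZNF593 libraries were made beside siControl by the naming of the deposited data, so the set of libraries and the siRNA cannot be told apart in this comparison. Between the controls themselves, siControl_2 over siControl, the members had a median log2 ratio of -0.01 with 71 below 0, and the 9790 genes -0.04 with 57.9% below 0. Since siControl helped to choose the members, that ratio is given as a description. Of the 65 members called in siZNF593 over siControl_2, 44 kept their call in each of the 6 fits that left out 1 library.

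Of the genes of vesicle traffic 8 of 10 were higher in siZNF593, with a median of 0.59. SYNRG was at 97.3, 94.6 and 97.8 CPM in siZNF593 and 49.0, 52.0 and 55.7 CPM in siControl_2 (log2 0.79, SE 0.08, adjusted p = 3.57e-08), without overlap. PGM2L1 was at 62.2, 65.4 and 69.7 CPM in siZNF593 (log2 1.74, SE 0.10, adjusted p = 4.6e-12), again above every siControl_2 library. TXNIP was at 98.6, 109 and 95.7 CPM in siZNF593 (log2 0.79, SE 0.08, adjusted p = 9.05e-08). ARHGAP29 (1.04), LURAP1L (1.38) and IKZF2 (1.28) rose by more than 1 as well. Lipid enzymes had a median of -0.05 with 4 of 12 higher and 1 lower, and the growth brakes -0.14 with 1 of 9 higher and 1 lower. Without replicate 2 of siZNF593 the lipid enzymes had 3 higher and 3 lower, and 2 higher and 1 lower without its replicate 3. They had 2 lower without replicate 2 or replicate 3 of siControl_2.

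The 10 members that fell in siZNF593 were METTL7A, SPRY1, ZSCAN21, MINDY2, ATXN1, PBXIP1, AKNA, PLA2G4A, TMEM241 and CCDC80. AKNA, TMEM241 and CCDC80 each lost the call in 4 of 6 fits that left out 1 library, with adjusted p-values of up to 0.11, 0.213 and 0.0844. METTL7A, a thiol methyltransferase of the endoplasmic reticulum and lipid droplets, was at 4.24, 3.96 and 3.34 CPM in siZNF593 and 9.95, 7.41 and 7.06 CPM in siControl_2 (log2 -1.18, SE 0.18, adjusted p = 2.26e-05). It was at 11.3, 10.50 and 14.1 CPM in the double knockdown (log2 0.46, SE 0.16, adjusted p = 0.0279 over siControl_2), where it lost its call in 3 of 6 fits that left out 1 library, with an adjusted p of up to 0.124 without siControl_2 replicate 2. Its siZNF593 libraries were the lowest of LN-229, and its siZFX libraries the highest at 22.7, 28.5 and 21.9 CPM. PLA2G4A fell to 28.2, 33.1 and 28.9 CPM in siZNF593, against 39.8, 40.0 and 42.9 CPM in siControl_2 (log2 -0.54, SE 0.09, adjusted p = 5.34e-05).

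Set against siZNF593, the double knockdown differs by the ZFX siRNA and by the set of libraries, which cannot be told apart here. Of the members 76 (53.5%) were higher in the double knockdown and 2 (1.41%), BHLHE41 and LURAP1L, were lower (edgeR quasi-likelihood test), where 14.8% of all tested genes were higher and 15% lower. Among the 9790 genes 20.8% were higher and 19.5% lower. The median log2 change of the members was 0.39, against 0.00 for those genes. Of the 111 members higher in the double knockdown over siControl_2, 45 were higher here with no call in siZNF593 over siControl_2. Another 18 were higher in all 3 comparisons, and 35 were higher in siZNF593 over siControl_2 with no call here. A further 9 had no call in either, and 4 were lower in siZNF593 over siControl_2 and higher here. No share over other genes stands beside these patterns of calls, so they do not set the members apart. The siZNF593 libraries also enter both comparisons on opposite sides, so the calls in them are linked. Without replicate 3 of the double knockdown 73 members were higher, with a median of 0.33. In a fit of only the 6 libraries compared 51 were higher, without the share of all tested genes called in that fit beside it. Of the 78 members called, 55 kept their call in each of the 6 fits that left out 1 library.

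METTL7A had the largest rise in the double knockdown over siZNF593 (log2 1.63, SE 0.18, adjusted p = 3.26e-07). HSD17B7 was at 20.3, 22.9 and 20.4 CPM in siZNF593, below each double knockdown library (log2 1.11, SE 0.12, adjusted p = 4.15e-07). HPSE was at 17.9, 15.2 and 18 CPM in siZNF593, also below each of them (log2 1.08, SE 0.12, adjusted p = 4.64e-07). In siZNF593 over siControl_2 HPSE had no call (log2 -0.01, SE 0.12, adjusted p = 0.966). ENPP5 (1.05), TDRKH (1.03), PGAP3 (1.03) and PLA2G4A (0.96) rose by similar amounts. Of metabolic enzymes 10 of 14 were higher with a median of 0.59, of lipid enzymes 9 of 12 with 0.56, of transporters 9 of 13 with 0.53 and of vesicle genes 3 of 10 with 0.14. Without replicate 3 of the double knockdown these medians were 0.54, 0.46, 0.44 and 0.075, with 9, 8, 9 and 2 members higher. The vesicle count was 1 without replicate 1 or replicate 3 of siZNF593, and 2 with a median of 0.23 without replicate 1 or replicate 2 of the double knockdown. TXNIP (0.01), SYT1 (0.00) and MYOF (-0.05) had no call, with adjusted p-values of 0.917, 0.998 and 0.638.

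ZFX12_13 is compared with pCMV6 and wtZFX, which chose the members, so only values are given. With ZFX12_13 the members had a median log2 ratio to pCMV6 of -0.35. Of the 142, 139 lay below 0 and 91 at or below -0.3, while 60.01% of the 9790 genes lay below 0 with a median of -0.06. Against wtZFX the median was 0.09. IKZF2 was at 7.96, 10.7 and 9.49 CPM with ZFX12_13 and 9.10, 10.7 and 10.1 CPM with wtZFX, against 19.0, 14.2 and 17.6 CPM with pCMV6. TXNIP was at 23.6, 23.4 and 21.5 CPM with ZFX12_13 and 19.4, 18.2 and 18.8 CPM with wtZFX, against 29.7, 30.3 and 25.3 CPM with pCMV6. For both genes all libraries with a ZFX construct lay below the vector libraries. The 3 members above 0 with ZFX12_13 were the flavin monooxygenase FMO5 (0.42), BBC3 (0.12) and AKNA (0.09). FMO5 was at 9.52, 6.76 and 7.34 CPM with ZFX12_13 and 5.60, 4.07 and 3.83 CPM with wtZFX, against 6.22, 5.29 and 5.80 CPM with pCMV6, and it is the least abundant member in siZFX.

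Of 32 lists of pathway and family genes written from general knowledge, 8 held 10 of the members (7.04%), and all 32 held 1205 of the 9790 genes (12.3%), a difference that was not tested. The lists name chosen genes of each pathway and leave out others, so a member on no list may still belong to one. The list of cell cycle and growth brakes, which holds FOXO3 and FOXO4, had 5 of 20 tested genes higher in the double knockdown over siControl_2 and 8 lower, with a median of -0.23. On it the MYC antagonist MXD1 (1.004), the retinoblastoma gene RB1 (0.56), CDKN1B (0.40) and RBL2 (0.25) rose beside FOXO3, and TOB1 (-0.82), TOB2 (-0.83), CDKN2D (-0.83) and KLF9 (-0.45) were among those that fell. Of 245 solute carriers, with SLC9A9 and SLC16A4 among them, 54 were higher and 70 lower. Of 64 RAB GTPase genes, with RAB3B, 12 were higher and 17 lower, and of 471 ZNF genes, with ZNF429, 90 were higher and 64 lower. The NRF2 list with TXNIP had 8 of 24 higher and 5 lower, the p53 list with BBC3 had 0 of 23 higher and 9 lower, and the BCL2 family list with BBC3 had 3 of 23 higher and 9 lower. Of 11 histone genes tested, with H1F0, 2 were higher and 0 lower.

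The members lay on 23 chromosomes, with 17 on chromosome 1 and 7 on X (4.93% of members, against 3.39% of the 9790 genes). They were longer genes than those 9790, with a median span of 57.2 kb against 35.9 kb and a median transcript length of 4657.5 bases against 3954. Another annotated gene overlapped 101 of the 142 (71.1%, against 69.9%), and without strand information reads in such overlaps cannot be placed.

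Promoter windows of 300 bases, from 250 before to 50 after the start, were at hand from RefSeq (GRCh38.p14) for 119 of the 142 members and 7991 of the 9790 genes. The members' windows were poorer in GC (median 59.3%, against 65.7%) and held fewer CpG pairs (19 per window, against 27). In 331 windows of genes with both conditions of the rule turned round, which were lower in siZFX and higher with wtZFX, the medians were 73.3% GC and 32 CpG pairs. The ZFX core AGGCCT, which reads the same on both strands, occurred in 8 member windows (6.72%), against 846 of the 7991 (10.6%) and 38 of the 331 (11.5%). The longer AGGCCTAG, searched on both strands and containing the core, occurred in 0 member windows and in 81 of the 7991 (1.01%). The E-box CACGTG was in 9.24% of member windows, 10.6% of the 7991 and 8.16% of the 331. The forkhead letters TGTTTAC, searched on both strands, were in 6 member windows (5.04%), those of TXNIP, FOXO4, HBP1, PGAP3, AUH and BTD. They were in 177 of the 7991 (2.21%) and 4 of the 331 (1.21%). These letters are poor in GC, as member windows are by comparison, and the shares were not adjusted for base content. A match or its absence is a property of these letters and says nothing of binding.

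The promoters of 5 members show the kinds found, each as the 250 bases before the start, read toward the gene. PGM2L1 (chr11:74398434-74398683, minus strand) is shown as the member with the highest ratio in siZFX over siControl and the largest rise in the double knockdown over siControl_2, and its window has none of the motifs searched. TXNIP (chr1:145996580-145996829, minus strand) and HBP1 (chr7:107168753-107169002, plus strand) are shown for the forkhead letters on the opposite strand, 124 and 173 bases before the start, in capitals. CFAP44 (chr3:113441494-113441743, minus strand) and PUS10 (chr2:61018256-61018505, minus strand) are shown for the ZFX core, in capitals, 11 bases before the start in CFAP44 and at 211 and 167 bases in PUS10, the pseudouridine synthase gene with the lowest GC content of the 5 (41.2%).
PGM2L1: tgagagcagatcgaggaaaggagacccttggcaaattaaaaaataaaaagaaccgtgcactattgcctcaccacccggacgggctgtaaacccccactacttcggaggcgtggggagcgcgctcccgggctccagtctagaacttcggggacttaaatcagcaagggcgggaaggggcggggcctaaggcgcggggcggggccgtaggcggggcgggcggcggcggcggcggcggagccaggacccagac
TXNIP: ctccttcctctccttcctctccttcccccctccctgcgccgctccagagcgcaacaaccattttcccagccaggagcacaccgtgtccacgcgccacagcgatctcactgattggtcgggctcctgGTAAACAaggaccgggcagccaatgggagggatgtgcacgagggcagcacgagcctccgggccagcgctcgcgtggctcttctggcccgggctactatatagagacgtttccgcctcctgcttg
HBP1: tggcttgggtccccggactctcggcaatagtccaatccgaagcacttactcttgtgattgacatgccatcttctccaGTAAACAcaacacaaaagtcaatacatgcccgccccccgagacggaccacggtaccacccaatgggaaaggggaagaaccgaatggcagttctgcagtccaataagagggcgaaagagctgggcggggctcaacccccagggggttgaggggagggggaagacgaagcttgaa
CFAP44: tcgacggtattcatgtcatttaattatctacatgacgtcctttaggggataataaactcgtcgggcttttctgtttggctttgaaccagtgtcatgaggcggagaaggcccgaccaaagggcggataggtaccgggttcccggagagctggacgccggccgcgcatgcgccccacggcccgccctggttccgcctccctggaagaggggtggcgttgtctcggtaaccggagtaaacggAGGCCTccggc
PUS10: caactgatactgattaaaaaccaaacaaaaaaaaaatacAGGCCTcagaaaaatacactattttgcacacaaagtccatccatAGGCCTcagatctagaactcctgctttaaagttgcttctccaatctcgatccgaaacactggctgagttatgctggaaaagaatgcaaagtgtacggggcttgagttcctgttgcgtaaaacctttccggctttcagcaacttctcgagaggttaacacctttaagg
TXNIP rose by 0.81 and HBP1 by 0.31 in the double knockdown over siControl_2, CFAP44 by 0.68, and PUS10 had 0.25 with no call (adjusted p = 0.341).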

How the data were processed

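RNA-seq counts per gene for 24 libraries were read as the authors deposited them, as whole-number counts in an unstranded column and a column for each strand. STAR, HTSeq and DESeq2, without versions, and hg38 are named in the submitters' processing notes, and the annotation is not given in the sources used here. All 58721 gene IDs matched GENCODE release 29, from which symbols and coordinates (GRCh38) were taken. The unstranded column was used, since reads fell evenly on the strands. Gene counts were 16774179 to 30159260 per library in LN-229 and 16223239 to 24272308 in DKO cells, and rows that name no gene, left out of totals and tests, held 19.5% to 22.4% and 25.2% to 29.0% of all reads.

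Members were chosen on plain CPM. Tests used edgeR 4.0.16 in R 4.3.3 on the counts of all 15 LN-229 libraries (quasi-likelihood, robust, TMM factors 0.952 to 1.05, filterByExpr), with 1 coefficient per group and Benjamini-Hochberg adjustment over 17684 genes. The biological coefficient of variation was 11.2%. Each SE was taken as the size of the log2 change divided by the root of its F statistic. On simulated data with 200 changed genes for the double knockdown over siControl_2 the fit recovered 74.6%, 95.5% and 100% of genes changed 1.5-, 2- and 4-fold, with 10 false calls among 17207 genes. Comparisons that share libraries with the rule were given no test.

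The members, the gene lists and the tests were chosen with earlier results of these data known, and function groups were assigned by hand. A few members and 1 function group are not reported here. Genes were named by a rule: the 25 members with the largest smaller-of-both ratios, members of the gene lists, the 5 largest rises and falls among called members in the double knockdown over siControl_2 and over siZNF593, and those nearest to each threshold. Further members named by function were picked after their values were seen. Alternatives were upper-quartile or RLE factors, no filter, DESeq2 1.42.0, only the 6 libraries compared, a replicate block, summed stranded columns, siControl in place of siControl_2, and each library left out. GC and length offsets, the E-box and forkhead searches and counts by function group with each library left out were added after seeing the data.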

Additional observations from a re-analysis of the deposited data

How the results depend on the processing

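The median log2 change of the members was above 0 in each of the 3 comparisons under every alternative run. Counts under alternatives, here and above, stand without the share of all tested genes called in the same fit. A change in power for all genes therefore cannot be told from a change in the members. In the double knockdown over siControl_2, 94 (only the 6 libraries compared) to 114 (upper-quartile factors) members were higher, 100 to 110 with 1 library left out, and the median log2 change ran from 0.545 to 0.72. In siZNF593 over siControl_2 it was 48 to 61 members, 43 to 53 with 1 library left out, and 0.182 to 0.255. In the double knockdown over siZNF593 it was 51 (only the 6 libraries compared) to 80 members, 61 to 76 with 1 library left out, and 0.295 to 0.433. Members lower in the double knockdown over siControl_2 numbered 3 to 5 with 1 library left out, and were 5 without replicate 1 of the double knockdown, for a cause that was not tested. In siZNF593 over siControl_2 7 to 12 were lower with 1 library left out, and 14 with GC and length offsets.

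With siControl, which chose the members, in place of siControl_2, 9 called values changed sign, the cause of which was not tested. In the double knockdown these were DAGLB (-0.0034), MINDY2 (0.0016), MYOF (-0.13) and NABP1 (-0.10), and in siZNF593 MYOF (-0.08), NABP1 (-0.09), NCEH1 (-0.03), PBXIP1 (0.08) and PLA2G4A (0.21). The rule itself gave 231 genes with siControl_2 in place of siControl, of which 102 were among the 142, and 108 to 210 genes under other pseudocounts, a minimum of 1 CPM, TMM-scaled totals or summed strands, and 131 to 150 with 1 library left out.

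Replicate numbers were not used to pair the libraries in the main fit. Deviations of same-numbered libraries from their group means correlated at -0.354 to 0.442 over 11132 genes in the 3 tested comparisons. Libraries with different numbers were not correlated in this way, so these values cannot show whether the numbers pair the libraries. With the number as a replicate block 109, 57 and 74 members were higher in the double knockdown over siControl_2, in siZNF593 over siControl_2 and in the double knockdown over siZNF593. With 3 libraries in a group, changes of 1.5-fold were the ones most often missed on simulated data, so the absence of a call does not show that a gene stayed level.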
